A study of Mus musculus with 30 samples.

Results

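Undifferentiated spermatogonia genes are transcripts by which the earliest male germ cells of the testis, among them the stem cells, are recognised. The 10 genes described here are Gfra1, Ret, Zbtb16, Nanos2, Nanos3, Id4, Etv5, Lin28a, Eomes and Sall4, chosen by name as known markers by a rule that uses no measured value, with earlier results of these data known. Each matched 1 of the 65534 rows of a table of transcript levels, and 9 of the 10 passed the filter of more than 1 TPM (a transcript level corrected for transcript length and library total) in at least 5 libraries. Eomes did not pass. The table covers polyadenylated RNA of testis cells from male mice, in 30 libraries from 14 litters. Prdm9 encodes a histone methyltransferase that marks the sites of meiotic recombination, and the series compares its alleles at 3 ages of the first wave of spermatogenesis. Mutants are Prdm9-/-, with 5 libraries at each of 8, 12 and 16 days postpartum (dpp). Non-mutants are Prdm9+/- (2, 4 and 3 libraries at 8, 12 and 16 dpp) and Prdm9+/+ (3, 1 and 2 libraries), pooled as 5 libraries at each age. All animals share a C57BL/6J background with under 10% 129S1/SvImJ, and the labels do not say how the mutant allele was made. Seminiferous tubules were digested with Liberase TL and washed to remove interstitial cells, and the labels call the product enriched germ cells.

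Undifferentiated spermatogonia lie on the basement membrane of the tubule beside Sertoli cells, the somatic cells that feed them. Sertoli cells and peritubular cells release GDNF, which binds the coreceptor GFRA1 and the receptor kinase RET on the spermatogonium and sustains self-renewal. Downstream and beside that signal act the transcription factors ETV5, ID4, EOMES, ZBTB16 and SALL4 and the RNA-binding proteins NANOS2, NANOS3 and LIN28A. When the cells commit to differentiation they leave this state, express KIT and, later, enter meiosis.

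The sequences just upstream of the RefSeq transcription starts (build GRCm38.p6) are shown for Id4, Etv5 and Nanos2, since these genes stand for the directions of change described below: higher at 16 dpp, lower at 12 dpp and lower at 16 dpp. Of the 10 genes 7 have a RefSeq promoter entry; Ret, Zbtb16 and Sall4 have none. Capitals mark the GC box GGGCGG and the CCAAT box CCAAT on either strand, which do not overlap each other here. The stretches are chr13:48260866-48261115 on the plus strand, chr16:22439720-22439820 on the minus strand and chr7:18987274-18987399 on the plus strand, each 5′ to 3′ and cut where an exon annotated in GENCODE M21 begins.
Id4: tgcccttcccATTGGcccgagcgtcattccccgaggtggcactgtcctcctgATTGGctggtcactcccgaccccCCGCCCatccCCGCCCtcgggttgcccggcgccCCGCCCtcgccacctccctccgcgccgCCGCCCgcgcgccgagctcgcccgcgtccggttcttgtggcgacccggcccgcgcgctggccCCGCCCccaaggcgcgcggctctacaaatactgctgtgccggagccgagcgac
Etv5: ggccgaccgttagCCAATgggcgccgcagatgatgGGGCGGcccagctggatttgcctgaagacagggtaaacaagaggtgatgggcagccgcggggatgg
Nanos2: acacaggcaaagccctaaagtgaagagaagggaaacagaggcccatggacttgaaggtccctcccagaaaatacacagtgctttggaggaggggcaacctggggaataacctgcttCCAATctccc

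In the 250 bases before the start, Id4 has 5 GC boxes, 2 CCAAT boxes and 35 CG pairs, against a median of 6 CG pairs over 32851 mouse promoters of the same length. Etv5 has 3 GC boxes, 3 CCAAT boxes and 27 CG pairs in the same window, of which the part outside annotated exons is shown; a second RefSeq start, not shown, has 0 GC boxes, 1 CCAAT box and 18 CG pairs. Nanos2 has no CG pair and no GC box, 2 CCAAT boxes and 1 TATA box (TATAAA) at 33 bases before its start, in the stretch not shown. A GC box is present in 32.7% of all these promoters, a CCAAT box in 33.8% and a TATA box in 12.4%, so a match describes the letters and is no sign of binding. The ETS core CCGGAAG, searched because ETV5 is an ETS factor, is in 6.91% of promoters and in the windows of 0 of the 7 genes.

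Lin28a, an RNA-binding protein that blocks let-7 maturation, was the most abundant of the 10 genes at every age. At 12 dpp it averaged 62.4 ± 7.61 TPM in mutants and 58.99 ± 9.86 TPM in non-mutants (SD, n = 5 each), and in both its lowest library lay above the highest library of Sall4, the next gene. Sall4, Zbtb16 and Etv5 averaged between 18.9 and 37.9 TPM over the 6 combinations of age and genotype class, and overlapped one another at 8 dpp in mutants. Ret and Gfra1 lay between 8.55 and 17.2 TPM on average, Nanos3 between 5.44 and 8.19, and Nanos2 between 0.948 and 2.42. Id4 overlapped Ret and Gfra1 at 8 and 12 dpp and lay above every library of both at 16 dpp. Eomes, which marks a small subset of the GFRA1-positive cells, stayed between 0.21 and 0.78 TPM in all 30 libraries. Nanos2 exceeded 1 TPM in 23 of 30 libraries, and the other 8 genes that passed did so in 30.

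**Figure D1:**
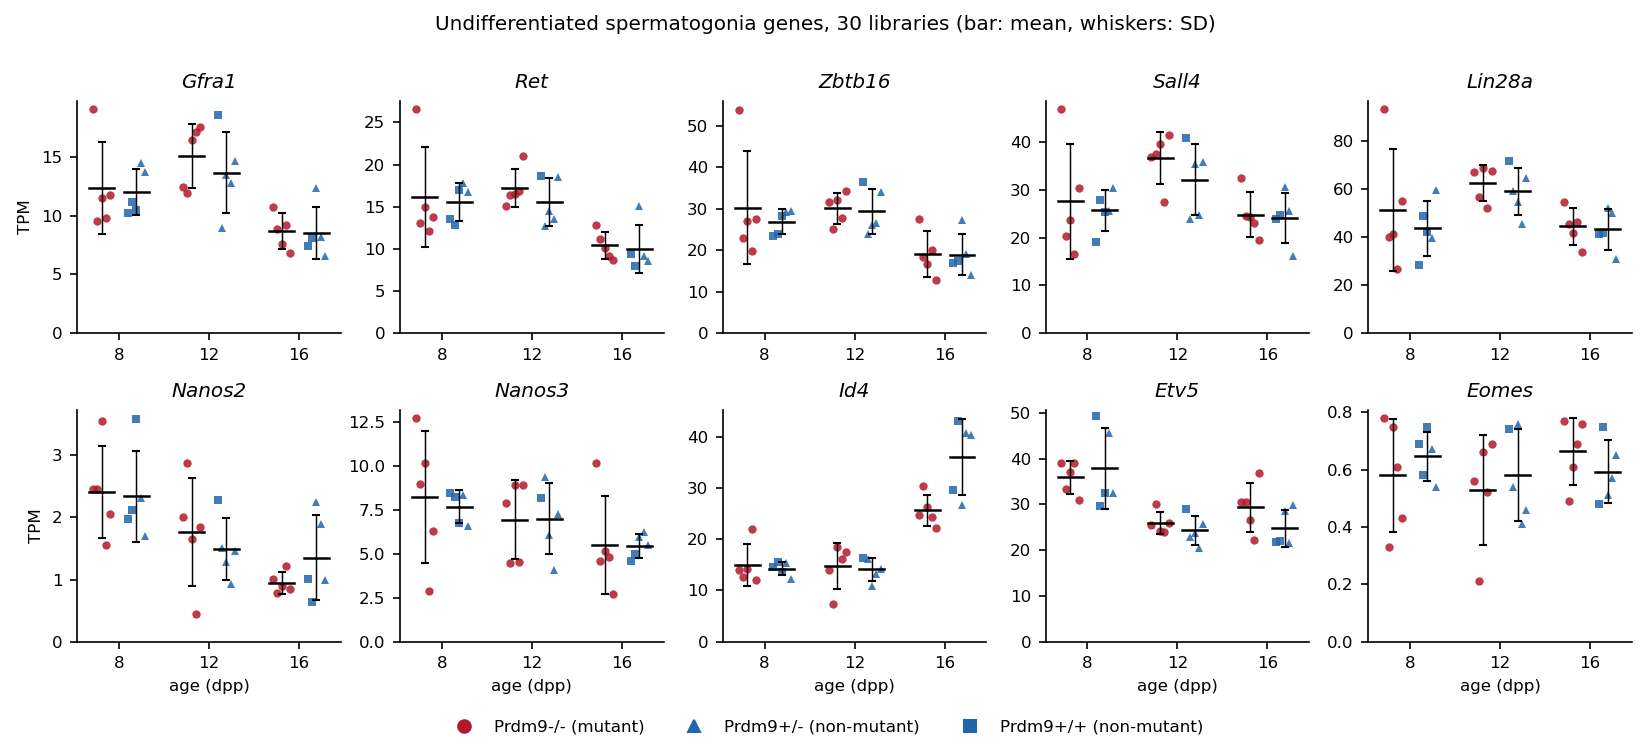
TPM (vertical axis, from 0) of each of the 10 genes by age in dpp; red circles are Prdm9-/- libraries, blue triangles Prdm9+/- and blue squares Prdm9+/+, with bars at the mean and whiskers of 1 SD of 5 libraries. Mutants and non-mutants overlap for all 10 genes at each age, while Id4 at 16 dpp runs from 22.2 to 43.1 TPM, above its values at 8 and 12 dpp.

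The libraries hold somatic RNA as well. The summed level of 14 Sertoli cell markers, all of which passed the filter, was between 6296 and 9968 TPM in mutants and between 7450 and 10080 TPM in non-mutants over the 3 ages. In bulk RNA of this kind fewer cells of a type and less RNA per cell cannot be told apart, and each level is a share of all transcripts of a library. General germ cell markers (7 genes) summed to 598 TPM in mutants and 543 TPM in non-mutants at 8 dpp. The sums were 1090 and 1105 TPM at 12 dpp, and 1588 and 1902 TPM at 16 dpp. At 16 dpp 2 of the 7 were called lower in mutants (limma), beside 2.75% of all rows, so their sum is no count of germ cells. Litters are nested in age, so litter and age cannot be told apart, and the strand setting of the counting is not given in the sources used here. Nanos2, Id4, Gfra1, Lin28a, Eomes and Sall4 overlap a gene on the opposite strand, and Nanos3 overlaps 2 microRNA genes on its own strand; reads there may be shared. Prdm9 itself went against its labels in litter 13 at 12 dpp, with 19.2 TPM in the library labelled Prdm9-/- (replicate 5) and 9.16 TPM in its mate labelled Prdm9+/- (replicate 4); both are kept under their labels. At 8 dpp Prdm9 did not separate the labels either, with 7.38, 6.97, 8.98, 4.77 and 8.03 TPM in libraries labelled Prdm9-/-, against 5.40 and 6.10 TPM in those labelled Prdm9+/- and 1.82, 5.51 and 5.18 TPM in those labelled Prdm9+/+: 4 of 5 mutant libraries lay above every non-mutant one. In litter 3 the library labelled Prdm9-/- had 7.38 TPM and its mate labelled Prdm9+/+ 1.82 TPM. Groups at 8 dpp therefore rest on the labels alone, and which part of the gene the allele lacks is not given in the sources used here.

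Whether loss of Prdm9 alters the undifferentiated compartment was read at each age. Of the 9 genes tested 0 were called between mutants and non-mutants at 8, 12 or 16 dpp (limma, Benjamini-Hochberg adjusted over 20021 rows, called under 0.05). At an unadjusted p under 0.05 there were 0, 0 and 1 of the 9, beside 417, 225 and 2473 of the 20021 rows. The 1 was Id4 at 16 dpp. Over all rows tested the percent called was 0 at 8 dpp, 0 at 12 dpp and 3.26 at 16 dpp (0.509 higher and 2.75 lower). The log2 fold changes of the 9 genes, on the log2(TPM + 1) scale as all fold changes here, ran from -0.05 (Etv5) to 0.14 (Lin28a) at 8 dpp and from -0.02 (Nanos3) to 0.20 (Sall4) at 12 dpp. Their medians were 0.03, 0.09 and 0.03 at 8, 12 and 16 dpp, beside 0.02, -0.002 and 0.07 over all rows. These values do not show that the groups were equal: the 95% intervals reached from -0.30 to 0.59 for Lin28a at 8 dpp, and were widest for Nanos3, at -0.63 to 0.47 at 16 dpp.

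Id4, an inhibitor of basic helix-loop-helix factors that is enriched in spermatogonial stem cells, came closest. At 16 dpp Id4 had 24.7, 30.3, 26.3, 24.4 and 22.2 TPM in mutants, against 26.6, 40.7 and 40.4 TPM in Prdm9+/- and 29.6 and 43.1 TPM in Prdm9+/+. Of the 5 mutant libraries 4 lay below every non-mutant library, and the highest mutant library overlapped the 2 lowest non-mutant ones. The log2 fold change was -0.46 (SE 0.179, adjusted p = 0.227), with a 95% interval of -0.83 to -0.09, and it was not called. In the same libraries the summed level of 8 genes of pachytene spermatocytes (7 passed the filter) was 158 to 207 TPM in mutants and 322 to 1451 TPM in non-mutants. Within the non-mutants the library with the lowest pachytene sum, Prdm9+/- replicate 1, also had the lowest Id4 (26.6 TPM). Prdm9+/+ replicates 1 and 2 had sums of 535 and 549.5 TPM, with Id4 at 29.6 and 43.1 TPM. Prdm9+/- replicates 2 and 3 had sums of 1175 and 1451 TPM, with Id4 at 40.7 and 40.4 TPM. The part of these sums in the Id4 values was not tested.

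Etv5, a transcription factor induced by GDNF, had 30.4, 30.5, 26.6, 22.2 and 36.8 TPM in mutants, against 28.5, 21.6 and 29.9 TPM in Prdm9+/- and 21.7 and 22.1 TPM in Prdm9+/+ at 16 dpp. The groups overlapped, with 3 mutant libraries above every non-mutant one, and the log2 fold change of 0.23 (SE 0.135, adjusted p = 0.52) was not called. For Nanos2, which maintains the stem cell state by repressing the translation of differentiation genes, the 16 dpp values were 1.01, 0.78, 0.89, 1.22 and 0.84 TPM in mutants, against 2.25, 1.89 and 0.99 TPM in Prdm9+/- and 1.01 and 0.63 TPM in Prdm9+/+. They overlapped too, at a log2 fold change of -0.23 (SE 0.216, adjusted p = 0.725). Among the non-mutants, Prdm9+/- against Prdm9+/+ with age as a factor called 0 of the 9 genes (limma), beside 0% of 18668 rows. At an unadjusted p under 0.05 there were 0 of the 9, beside 1972 of the 18668 rows (1824 higher and 148 lower in Prdm9+/-). The median log2 fold change over all rows was 0.087, and 0.011 with median-ratio scaling. Ret differed most of the 9, by 0.11 (SE 0.142, limma adjusted p = 0.784).

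**Figure D2:**
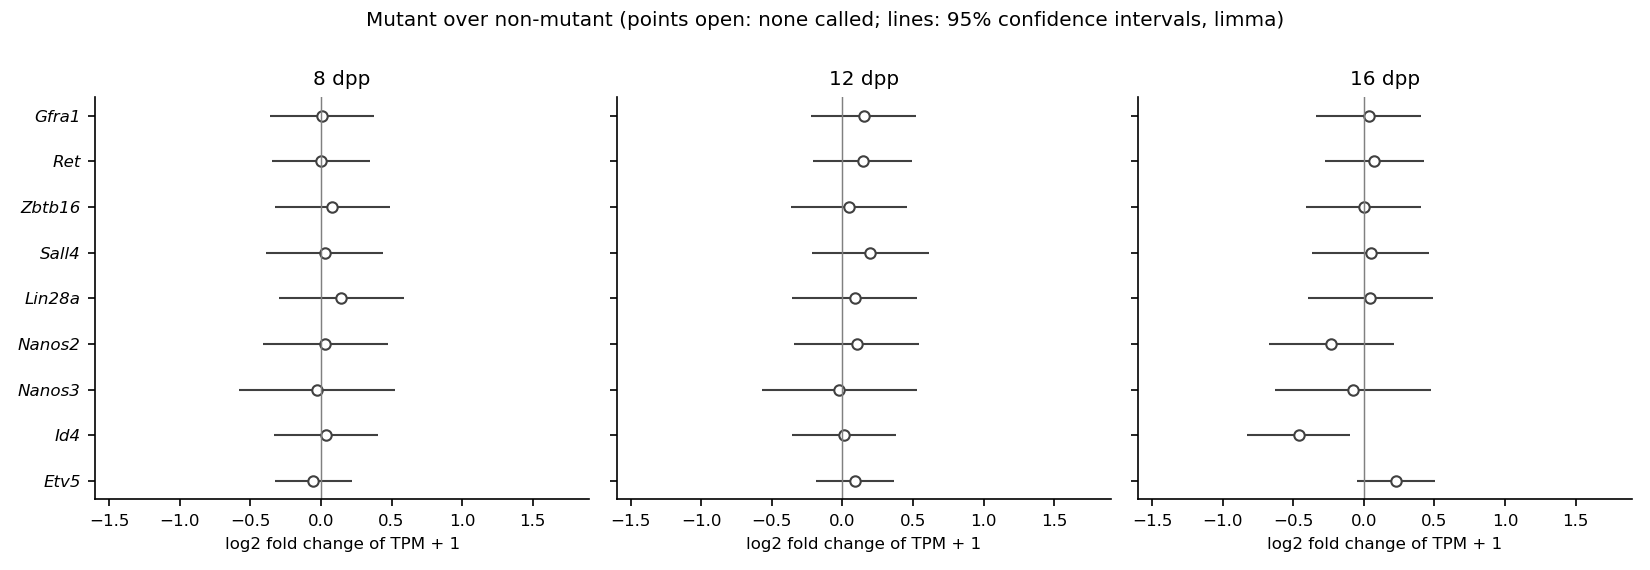
Log2 fold change of TPM + 1, mutant over non-mutant (horizontal axis), for the 9 genes tested at 8, 12 and 16 dpp; open points mark genes that were not called, and lines are 95% confidence intervals from limma. All lines cross 0 except that of Id4 at 16 dpp, at -0.83 to -0.09.

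More of these genes were called between ages than between genotypes, as were more of all rows. The shares over all rows were 0 to 3.26% between genotypes and 12.1 to 51.3% between ages. The GDNF receptor pair fell between 12 and 16 dpp in both genotype classes. The classes share litters at each age, so a step seen in both is not an independent repeat. Gfra1 (chromosome 19, 58235604 to 58455909, mm10) encodes the GDNF-binding coreceptor. It had 19.2, 9.55, 11.5, 9.84 and 11.8 TPM in mutants, against 14.6 and 13.8 TPM in Prdm9+/- and 10.2, 11.2 and 10.5 TPM in Prdm9+/+ at 8 dpp. At 12 dpp the values were 12.4, 11.97, 16.5, 17.1 and 17.6 TPM in mutants, against 8.94, 13.5, 12.8 and 14.7 TPM in Prdm9+/- and 18.6 TPM in Prdm9+/+. At 16 dpp they were 10.8, 8.91, 7.63, 9.24 and 6.82 TPM in mutants, against 12.4, 8.20 and 6.60 TPM in Prdm9+/- and 7.41 and 8.13 TPM in Prdm9+/+. All 5 mutant libraries at 16 dpp lay below all 5 at 12 dpp, and among non-mutants 4 of 5 did. The log2 fold change at 16 over 12 dpp was -0.73 (SE 0.181, adjusted p = 0.00666) in mutants and -0.62 (SE 0.181, adjusted p = 0.0141) in non-mutants.

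Ret (chromosome 6, 118151745 to 118197718), the receptor kinase that GFRA1 presents GDNF to, had 15.1, 16.4, 16.5, 16.8 and 21.1 TPM in mutants, against 12.7, 14.5, 13.5 and 18.5 TPM in Prdm9+/- and 18.6 TPM in Prdm9+/+ at 12 dpp. By 16 dpp it had 12.8, 11.2, 10.1, 9.20 and 8.71 TPM in mutants, against 15.04, 9.09 and 8.57 TPM in Prdm9+/- and 9.36 and 7.91 TPM in Prdm9+/+. The mutant groups did not overlap, and 4 of 5 non-mutant libraries at 16 dpp lay below all those at 12 dpp. Its log2 fold change was -0.68 (SE 0.17, adjusted p = 0.00792) in mutants and -0.61 (SE 0.17, adjusted p = 0.0104) in non-mutants. At 8 dpp the values of Ret were 26.6, 13.02, 14.98, 12.2 and 13.8 TPM in mutants, against 17.8 and 16.8 TPM in Prdm9+/- and 13.5, 12.8 and 17.01 TPM in Prdm9+/+, with mutant replicate 1 far above the others. The ratio of Gfra1 to Ret, both per length, averaged 0.835 over the 30 libraries and ranged from 0.618 to 1.03, and its 6 group means lay between 0.777 and 0.881.

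Zbtb16 (chromosome 9, 48654297 to 48836222) encodes PLZF, a zinc finger repressor needed to keep the stem cell pool. The 8 dpp values were 53.95, 22.8, 27.1, 19.7 and 27.4 TPM in mutants, against 29.2 and 29.5 TPM in Prdm9+/- and 23.5, 23.8 and 28.3 TPM in Prdm9+/+. Those at 12 dpp were 31.7, 25.01, 32.0, 27.7 and 34.4 TPM in mutants, against 23.9, 26.1, 26.5 and 34.0 TPM in Prdm9+/- and 36.3 TPM in Prdm9+/+. The 16 dpp values were 27.6, 18.2, 16.6, 20.1 and 12.8 TPM in mutants, against 27.4, 19.03 and 14.04 TPM in Prdm9+/- and 16.9 and 17.4 TPM in Prdm9+/+. In both classes 4 of 5 libraries at 16 dpp lay below all 5 at 12 dpp. Zbtb16 fell by 0.67 on the log2 scale in mutants (SE 0.200, adjusted p = 0.0255) and by 0.62 in non-mutants (SE 0.200, adjusted p = 0.0251).

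With Id4, which rose, this made 4 of 9 genes called at 16 over 12 dpp in mutants, against 12.1% of all rows in either direction (5.89% lower), and 4 of 9 in non-mutants, against 21.8% (13% lower). The medians of the 9 genes were -0.49 in mutants and -0.40 in non-mutants, beside -0.004 and -0.09 over all rows. In non-mutants the split of called rows depended on scaling, with 1777 higher and 2595 lower as deposited and 2550 higher and 1715 lower with median-ratio scaling. The falls rest in part on single libraries: in non-mutants, without Prdm9+/+ replicate 1 at 12 dpp, or without Prdm9+/- replicate 3 at 16 dpp, Ret and Id4 alone were called. Neither genotype alone gives the 4 calls, with 1 called in Prdm9+/- (Id4) and 0 in Prdm9+/+, where 12 dpp has 1 library. Without litter 13 the fall of Zbtb16 was not called in either class, nor in non-mutants without Prdm9+/+ replicate 1 or 2 at 16 dpp, nor in mutants without replicate 1 at 12 dpp or replicate 3 or 5 at 16 dpp. Other markers moved at the same step. Of 10 genes of meiotic prophase 7 rose and 0 fell in mutants (median 0.98) and 6 rose and 0 fell in non-mutants (median 1.06), and of 7 pachytene genes 3 rose in mutants (median 0.88) and 7 in non-mutants (median 3.70). Of 14 Sertoli markers 1 rose and 5 fell in mutants and 1 rose and 6 fell in non-mutants, and of 7 macrophage and leukocyte markers 5 rose and 0 fell in mutants and 1 rose and 0 fell in non-mutants. The part of these lists in the falls of Gfra1, Ret and Zbtb16 and in the rise of Id4 was not tested. The age steps were also set against each other between the classes, with 0 of the 9 genes called (limma test of the difference). Over all rows 0% were called for 12 over 8 dpp and 1.35% for 16 over 12 dpp (1.26% lower). At an unadjusted p under 0.05 there were 0 members, beside 367 and 1462 of 20021 rows.

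Id4 (chromosome 13, 48261228 to 48266026) was the 1 gene of the 9 that rose. At 8 dpp it had 14.1, 12.7, 14.1, 21.9 and 11.97 TPM in mutants, against 15.3 and 12.3 TPM in Prdm9+/- and 14.6, 15.4 and 13.6 TPM in Prdm9+/+. At 12 dpp it had 13.98, 7.42, 18.5, 16.1 and 17.6 TPM in mutants, against 16.2, 10.9, 13.1 and 14.2 TPM in Prdm9+/- and 16.2 TPM in Prdm9+/+. Set beside the 16 dpp values above, every library at 16 dpp exceeded every library of its class at 12 and at 8 dpp. The log2 fold change at 16 over 12 dpp was 0.81 (SE 0.179, adjusted p = 0.00277) in mutants and 1.28 (SE 0.179, adjusted p = 5.20e-06) in non-mutants, a ratio of mean TPM of 1.74 and 2.55. The difference between those steps was -0.47 (SE 0.254, adjusted p = 0.764). Id4 averaged 3.01 times the level of Gfra1 in mutants and 4.50 times in non-mutants at 16 dpp, against 0.961 and 1.10 times at 12 dpp. Across the 30 libraries Id4 ran against the mean of the other 8 genes (Pearson r = -0.62, libraries of 6 groups that share an age or genotype). Within groups, as deviations from group means, the correlation was only -0.15. The genes most like Id4 over the 30 libraries were Pdcl2 (r = 0.89), Zfp654 (0.88), Lin9 (0.87), Casc1 (0.87) and Pnma1 (0.87), with no member among them. Which cells in the bulk RNA carry Id4 was not tested. Of its relatives Id1, Id2 and Id3, named here after their values were seen, 0 were called at 16 over 12 dpp in non-mutants and Id3 was called in mutants, at 0.53 (SE 0.164, adjusted p = 0.0316).

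Etv5 (chromosome 16, 22381309 to 22439719) changed at the earlier step. At 8 dpp it had 39.1, 33.3, 37.03, 38.9 and 30.9 TPM in mutants, against 45.5 and 32.5 TPM in Prdm9+/- and 49.3, 29.6 and 32.5 TPM in Prdm9+/+. At 12 dpp it had 25.5, 30.1, 24.2, 24.01 and 25.9 TPM in mutants, against 22.9, 23.8, 20.6 and 25.6 TPM in Prdm9+/- and 29.02 TPM in Prdm9+/+. The ages did not overlap in either class. Etv5 fell at 12 over 8 dpp by a log2 fold change of -0.45 (SE 0.135, adjusted p = 0.0116) in mutants and -0.59 (SE 0.135, adjusted p = 0.00114) in non-mutants, and it was the 1 member of 9 called in each. Over all rows 29.7% were called in mutants (12.2% lower) and 32.5% in non-mutants (12.1% lower; 2430 rows, or 3218 with median-ratio scaling, where 4067 and 3203 were higher, and 3038 lower and 3245 higher with quantile normalization). With Prdm9+/+ alone as non-mutants, where 12 dpp has 1 library, the value was -0.31 and not called. At 16 over 8 dpp Etv5 was called in non-mutants, at -0.58 (SE 0.135, adjusted p = 6.49e-04), and not in mutants, at -0.29 (SE 0.135, adjusted p = 0.0731).

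**Figure D3:**
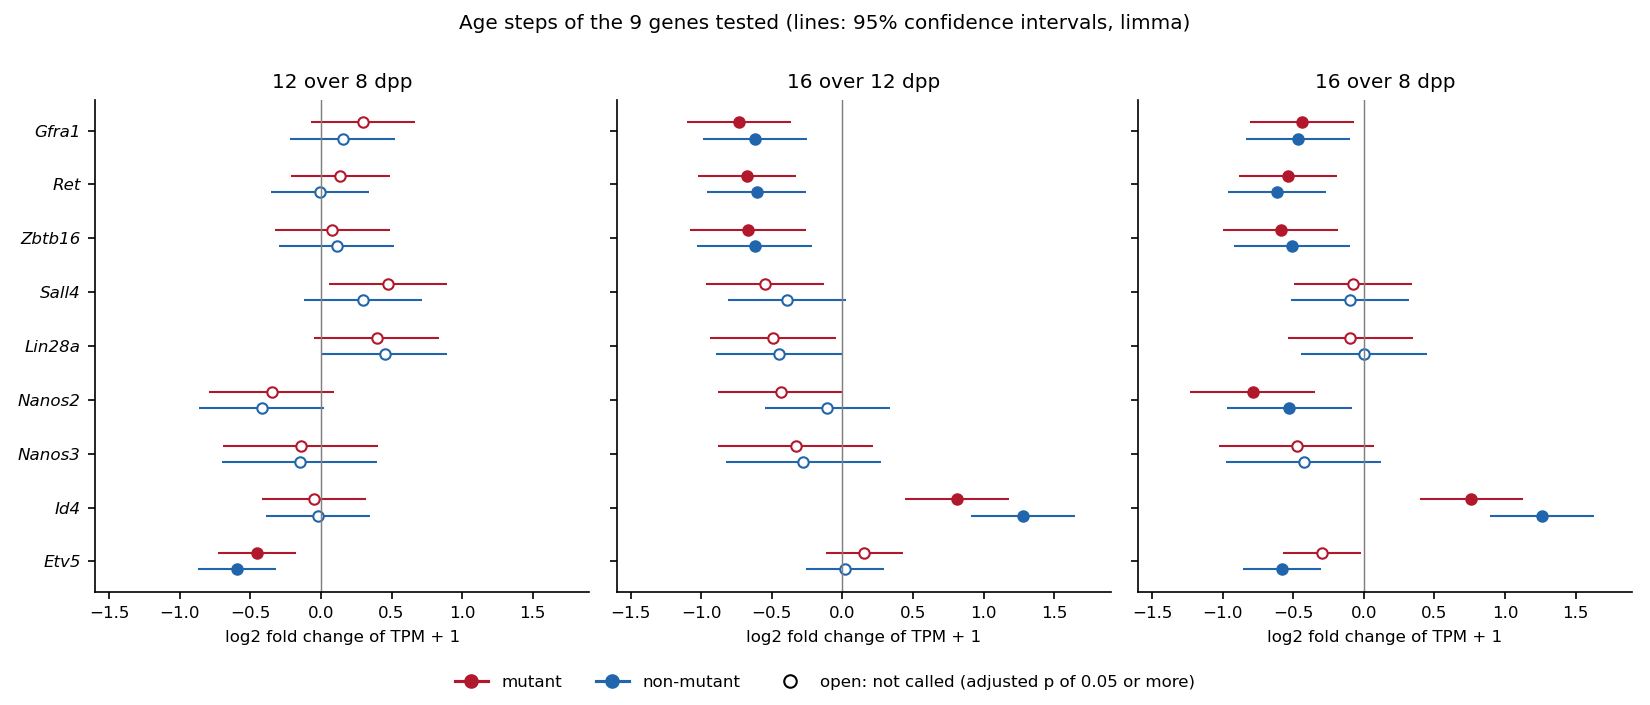
Log2 fold change of TPM + 1 (horizontal axis) of the 9 genes tested for 12 over 8, 16 over 12 and 16 over 8 dpp, in mutants (red, upper of each pair) and non-mutants (blue, lower); filled points were called, and lines are 95% confidence intervals from limma. Etv5 is called at the first step, Gfra1, Ret, Zbtb16 and Id4 at the second, and Id4 lies right of 0 in both classes at 0.81 and 1.28.

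Gdnf fell at the same first step as Etv5. Gdnf, the ligand, averaged 25.1 ± 3.32 TPM in mutants and 27.5 ± 5.45 TPM in non-mutants at 8 dpp, 9.79 ± 3.46 TPM in mutants and 8.98 ± 1.09 TPM in non-mutants at 12 dpp, and 6.98 ± 1.66 TPM in mutants and 5.78 ± 1.04 TPM in non-mutants at 16 dpp (SD, n = 5 each). No library at 12 dpp reached the lowest at 8 dpp. At 12 over 8 dpp Gdnf changed by -1.32 (SE 0.18, adjusted p = 2.21e-06) in mutants and -1.498 (SE 0.18, adjusted p = 4.13e-07) in non-mutants. In a list of 18 genes of GDNF, FGF and CXCL12 signalling, 17 passed the filter; at this step 6 fell, 2 rose and 9 were not called in mutants, beside 12.2% of all rows lower and 17.5% higher, and 5 fell, 2 rose and 10 were not called in non-mutants, beside 12.1% lower and 20.3% higher. Those that rose in both were Fgfr3, an FGF receptor, and Nrtn, a GDNF family ligand named here after its values were seen. Spry4 and Dusp4, feedback inhibitors of the ERK pathway that GDNF and FGF feed, were among those that fell. Spry4 changed by -1.06 (SE 0.188, adjusted p = 8.37e-05) in mutants and -1.06 (SE 0.188, adjusted p = 7.69e-05) in non-mutants, and Dusp4 by -1.04 (SE 0.252, adjusted p = 0.00226) in mutants and -1.37 (SE 0.252, adjusted p = 1.20e-04) in non-mutants. Of 7 immediate early genes that tissue dissociation induces, 1 fell in mutants and 3 in non-mutants at this step, with 0 rising. At 16 over 8 dpp 4 of the 7 fell in mutants, beside 20.3% of all rows lower. In non-mutants 5 of the 7 fell, beside 24.4% lower, and 0 rose in either class. Their sum was 2730 to 4216 TPM in mutants and 3122 to 4266 TPM in non-mutants at 8 dpp, 2198 to 4475 and 2207 to 4448 TPM at 12 dpp, and 2007 to 3419 and 1825 to 2544 TPM at 16 dpp, and its part in the values of Spry4, Dusp4 and the member genes was not tested. Ncam1, an adhesion molecule that also binds GDNF, changed by -0.76 (SE 0.188, adjusted p = 0.00269) in mutants and -0.83 (SE 0.188, adjusted p = 0.00112) in non-mutants, and Cxcl12, a chemokine ligand, by -0.92 (SE 0.192, adjusted p = 5.30e-04) in mutants and -0.81 (SE 0.192, adjusted p = 0.00175) in non-mutants. At 16 over 12 dpp 0 of the 17 fell and 1 rose in mutants, beside 5.89% of all rows lower and 6.21% higher. In non-mutants 4 fell (Cxcl12, Fgfr1, Fgfr2 and Gdnf) and 0 rose, beside 13% lower and 8.88% higher. The log2 fold change of Gdnf there was -0.56 (SE 0.18, adjusted p = 0.0247, limma). Tested as a difference of this step between the classes, 0 of the 17 were called, beside 1.35% of all rows. Gdnf is a product of somatic cells, and the level of Amh, a product of immature Sertoli cells named here after its values were seen, was lower at each later age: 569.9 ± 150.4 TPM in mutants and 649 ± 262 TPM in non-mutants at 8 dpp, 281 ± 48.2 TPM in mutants and 241 ± 24.8 TPM in non-mutants at 12 dpp and 93.8 ± 5.99 TPM in mutants and 109.7 ± 16.3 TPM in non-mutants at 16 dpp. Of the 14 Sertoli markers 6 rose and 2 fell at 12 over 8 dpp in mutants, and 5 rose and 7 fell in non-mutants; their sums at 12 dpp were 9569 to 9968 TPM in mutants and 8512 to 10080 TPM in non-mutants, against 6296 to 8946 and 7450 to 9363 TPM at 8 dpp. Sertoli cells are known to express Etv5 as well, and their part in the Etv5 and Gdnf values was not tested.

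**Figure D4:**
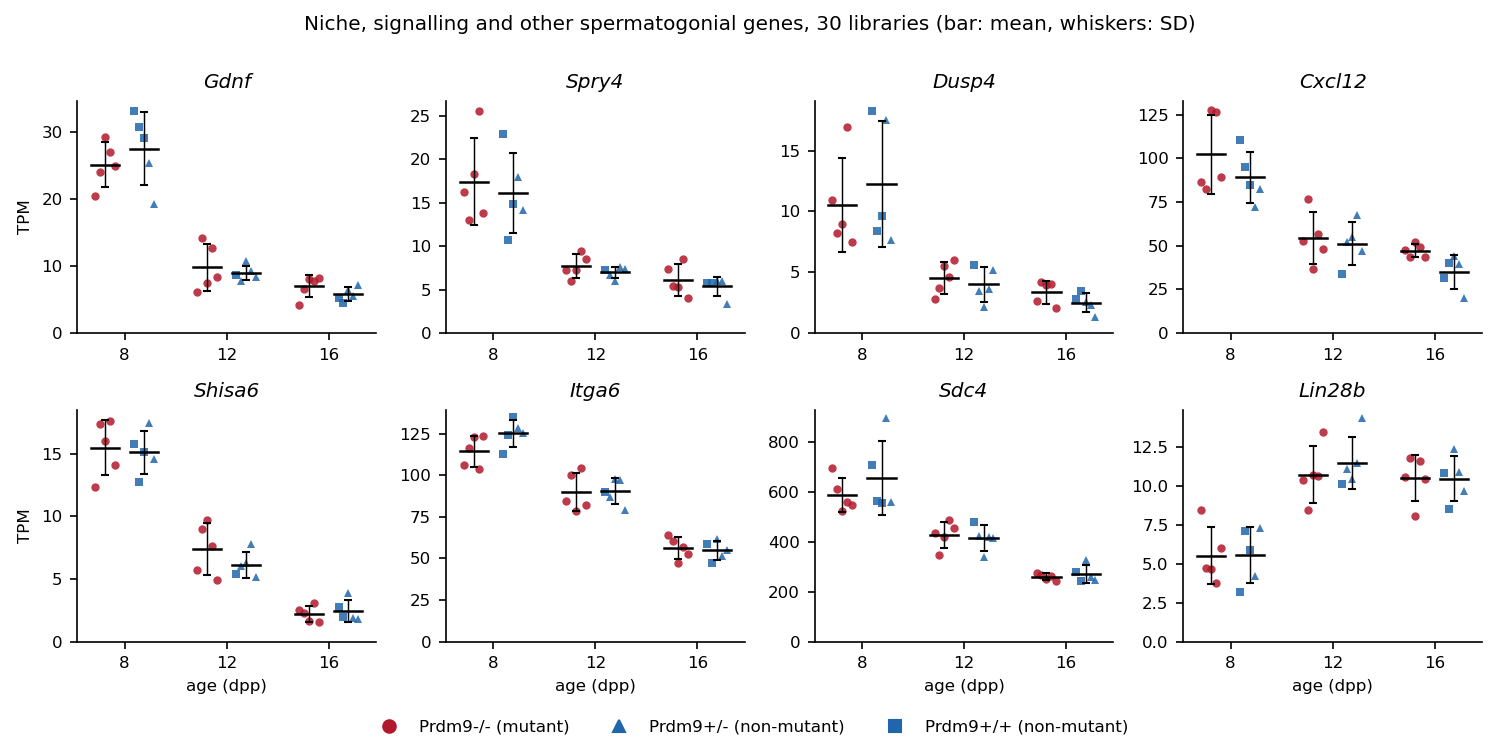
TPM (vertical axis, from 0) by age in dpp of Gdnf, Spry4, Dusp4, Cxcl12, Shisa6, Itga6, Sdc4 and Lin28b, with symbols as in the plot of the 10 genes; bars are means and whiskers 1 SD of 5 libraries. Gdnf falls to 9.79 TPM in mutants and 8.98 TPM in non-mutants at 12 dpp, and Lin28b averages 10.7 TPM in mutants and 11.5 TPM in non-mutants at that age.

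Nanos2 (chromosome 7, 18987400 to 18988962) was low at all ages and fell over the whole span. At 8 dpp it had 2.46, 2.45, 3.56, 1.55 and 2.06 TPM in mutants, against 2.31 and 1.70 TPM in Prdm9+/- and 1.98, 2.12 and 3.58 TPM in Prdm9+/+. At 12 dpp it had 2.01, 2.87, 1.65, 0.44 and 1.84 TPM in mutants, against 1.51, 1.28, 0.92 and 1.46 TPM in Prdm9+/- and 2.28 TPM in Prdm9+/+. In mutants every 16 dpp library lay below every 8 dpp library, while non-mutants overlapped. The log2 fold change at 16 over 8 dpp was -0.79 (SE 0.216, adjusted p = 0.00338) in mutants and -0.53 (SE 0.216, adjusted p = 0.0423) in non-mutants, and neither single step was called. The call in non-mutants was lost in 11 of 40 alternatives, among them without Prdm9+/+ replicate 2 or 3 or Prdm9+/- replicate 1 at 8 dpp, and without Prdm9+/+ replicate 1 or 2 or Prdm9+/- replicate 3 at 16 dpp. Nanos3 (chromosome 8, 84173731 to 84185217), its relative, which protects migrating germ cells from death, had 12.7, 8.93, 10.2, 2.90 and 6.27 TPM in mutants, against 8.35 and 6.54 TPM in Prdm9+/- and 8.44, 8.23 and 6.72 TPM in Prdm9+/+ at 8 dpp. At 12 dpp it had 7.88, 4.45, 8.88, 4.53 and 8.89 TPM in mutants, against 9.35, 6.07, 4.09 and 7.26 TPM in Prdm9+/- and 8.14 TPM in Prdm9+/+, and at 16 dpp 10.2, 4.60, 5.13, 4.81 and 2.73 TPM in mutants, against 5.92, 6.21 and 5.50 TPM in Prdm9+/- and 4.56 and 4.99 TPM in Prdm9+/+. The non-mutant values at 16 and 8 dpp did not overlap, while the mutant ones did, and Nanos3 was not called, at -0.47 (SE 0.269, adjusted p = 0.152) in mutants and -0.43 (SE 0.269, adjusted p = 0.189) in non-mutants. It was called in non-mutants (adjusted p = 0.0140, limma) when only the libraries compared entered the fit. The ratio of Nanos3 to Nanos2 averaged 4.56 over the 30 libraries, with a range of 1.55 to 10.3.

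Over 16 against 8 dpp 5 of 9 genes were called in mutants (Gfra1, Ret, Zbtb16 and Nanos2 lower, Id4 higher), beside 47.1% of all rows (20.3% lower), and 6 in non-mutants (also Etv5 lower), beside 51.3% (24.4% lower). The medians of the 9 were -0.44 in mutants and -0.47 in non-mutants, beside 0.06 and 0.02 over all rows. Gfra1 changed by -0.44 (SE 0.181, adjusted p = 0.0466) in mutants and -0.47 (SE 0.181, adjusted p = 0.0322) in non-mutants, and Ret by -0.54 (SE 0.17, adjusted p = 0.01) and -0.62 (SE 0.17, adjusted p = 0.00328). Zbtb16 changed by -0.59 (SE 0.2, adjusted p = 0.016) in mutants and -0.51 (SE 0.2, adjusted p = 0.0341) in non-mutants. In mutants these 3 falls depend on replicate 1 at 8 dpp: without it the values were -0.28, -0.35 and -0.36 (adjusted p = 0.188, 0.0529 and 0.0846) and only Nanos2 and Id4 were called. In non-mutants 3 genes (Ret, Etv5 and Id4) were called without Prdm9+/- replicate 1 at 8 dpp, without Prdm9+/+ replicate 1 or 2 at 16 dpp, or without Prdm9+/- replicate 3 at 16 dpp. Gfra1 in mutants, near the threshold, lost its call in 18 of 40 alternatives, and Zbtb16 in mutants also without replicate 5 at 16 dpp. In non-mutants Gfra1 and Zbtb16 were also not called without Prdm9+/- replicate 2 at 8 dpp, Gfra1 without Prdm9+/- replicate 2 at 16 dpp, and Zbtb16 without Prdm9+/+ replicate 3 at 8 dpp. Other calls appeared in mutants when 1 library was left out: Nanos3 at 16 over 8 dpp without replicate 4 at 8 dpp or 1 at 16 dpp, Etv5 at 16 over 8 dpp without replicate 5 at either age, Sall4 at 16 over 12 dpp without replicate 1 at 8 or 16 dpp, and Nanos2 at 16 over 12 dpp without replicate 4 at 12 dpp.

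Lin28a (chromosome 4, 134003330 to 134018841) and Sall4 (chromosome 2, 168748332 to 168767943), which extend further into early differentiating spermatogonia, were highest on average at 12 dpp. Lin28a had 93.2, 40.1, 41.3, 26.7 and 54.8 TPM in mutants, against 39.7 and 59.4 TPM in Prdm9+/- and 28.4, 48.5 and 42.1 TPM in Prdm9+/+ at 8 dpp. Its 12 dpp values were 67.1, 56.5, 68.7, 52.03 and 67.6 TPM in mutants, against 59.3, 54.6, 45.3 and 64.3 TPM in Prdm9+/- and 71.4 TPM in Prdm9+/+. Those at 16 dpp were 54.6, 45.3, 41.8, 46.2 and 33.8 TPM in mutants, against 52.1, 49.98 and 30.6 TPM in Prdm9+/- and 41.2 and 41.7 TPM in Prdm9+/+. The ages overlapped in both classes. Neither step was called: at 12 over 8 dpp the log2 fold change of Lin28a was 0.39 (SE 0.217, adjusted p = 0.178) in mutants and 0.45 (SE 0.217, adjusted p = 0.112) in non-mutants, and at 16 over 12 dpp -0.49 (SE 0.217, adjusted p = 0.145) and -0.45 (SE 0.217, adjusted p = 0.139). The later step was called in both classes, at an adjusted p of 0.0141 in mutants and 0.0458 in non-mutants (limma), when only the libraries compared entered the fit.

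Sall4 had 47.04, 20.3, 23.7, 16.6 and 30.4 TPM in mutants, against 25.6 and 30.5 TPM in Prdm9+/- and 19.01, 27.9 and 25.3 TPM in Prdm9+/+ at 8 dpp. At 12 dpp its values were 36.8, 37.5, 39.7, 27.4 and 41.5 TPM in mutants, against 23.97, 35.4, 24.8 and 35.7 TPM in Prdm9+/- and 40.8 TPM in Prdm9+/+. At 16 dpp they were 32.6, 24.6, 24.3, 23.1 and 19.6 TPM in mutants, against 30.6, 25.5 and 16.1 TPM in Prdm9+/- and 23.9 and 24.8 TPM in Prdm9+/+. These groups overlapped as well. Sall4, a zinc finger factor that pairs with PLZF, had log2 fold changes of 0.47 (SE 0.204, adjusted p = 0.0815) in mutants and 0.30 (SE 0.204, adjusted p = 0.277) in non-mutants at 12 over 8 dpp, and of -0.55 (SE 0.204, adjusted p = 0.0796) and -0.40 (SE 0.204, adjusted p = 0.169) at 16 over 12 dpp, with no call. The later step of Sall4 was called in mutants (adjusted p = 0.0152, limma) when only the libraries compared entered the fit. Mutant replicate 1 at 8 dpp was the highest 8 dpp library of both genes. Without it, at 12 over 8 dpp in mutants, Lin28a (0.64, adjusted p = 0.00980), Sall4 (0.68, adjusted p = 0.00521) and Gfra1 (0.45, adjusted p = 0.0427) were called higher, and in non-mutants, through the spread that all groups share, Lin28a was called (0.45). Without mutant replicate 4 at 12 dpp, Sall4 was called at 12 over 8 dpp in mutants (0.57). Mutant replicate 1 at 8 dpp also had the highest sum of general germ cell markers at 8 dpp, 1007 TPM, against 361 to 710.1 TPM in the other 9; the part of this in the member values was not tested. Lin28b, the paralog of Lin28a, had 5.51 ± 1.83 TPM in mutants and 5.54 ± 1.80 TPM in non-mutants at 8 dpp and 10.7 ± 1.80 TPM in mutants and 11.5 ± 1.67 TPM in non-mutants at 12 dpp, and rose by 0.88 (SE 0.175, adjusted p = 3.20e-04) in mutants and 0.97 (SE 0.175, adjusted p = 9.81e-05) in non-mutants.

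Eomes (chromosome 9, 118478212 to 118486132) averaged 0.58 ± 0.197 TPM in mutants and 0.646 ± 0.085 TPM in non-mutants at 8 dpp, 0.528 ± 0.191 and 0.582 ± 0.16 TPM at 12 dpp, and 0.664 ± 0.117 and 0.592 ± 0.11 TPM at 16 dpp (SD, n = 5 each). With no filter on low values (46579 rows) limma called it in 0 of 12 comparisons (0 at an unadjusted p under 0.05), with adjusted p of 0.606 or more.

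The 9 genes did not vary as one block from library to library. As deviations from group means, Lin28a and Sall4 followed each other most closely (Pearson r = 0.91 over 30 libraries), and the ratio of Lin28a to Sall4 averaged 1.78 with a range of 1.49 to 2.47. Zbtb16 followed Ret (0.89), Gfra1 (0.87), Sall4 (0.85) and Lin28a (0.83), and Gfra1 followed Ret (0.84). Mutant replicate 1 at 8 dpp had the highest value of the 30 libraries for Gfra1, Ret, Zbtb16, Lin28a and Sall4. The r values without that library were not computed. Nanos3 followed Zbtb16 at 0.64, and Nanos2 reached at most 0.40, with Nanos3. Id4 and Etv5 had values between -0.37 and 0.29 with the others. All these values share libraries and the total to which TPM are scaled, so they describe these 30 libraries only.

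**Figure D5:**
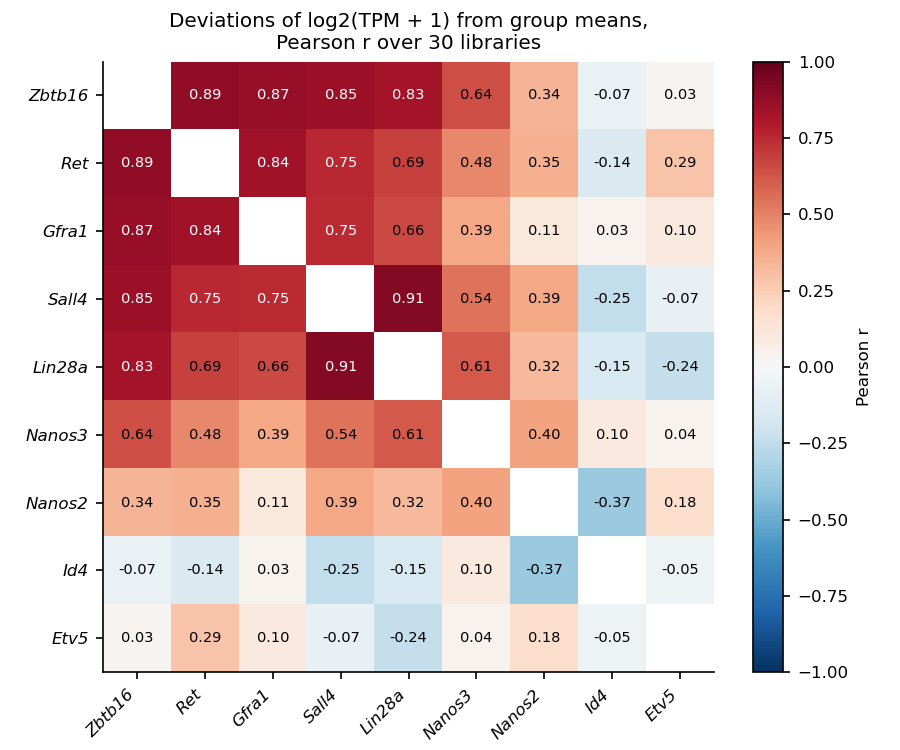
Pearson r between the 9 genes (rows and columns) of log2(TPM + 1) after each of the 6 group means was removed, over 30 libraries; red is positive, blue negative. Zbtb16, Ret, Gfra1, Sall4 and Lin28a form a block at 0.66 or more, with their highest library, mutant replicate 1 at 8 dpp, included. Id4 and Etv5 lie between -0.37 and 0.29.

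The genes most like the mean of the 9, among 13414 candidate genes over 30 libraries, were Glis3 (r = 0.94), a zinc finger factor of early spermatogonia that is also in the wider list below, Sall1 (0.91), a relative of Sall4, Trim71 (0.89), a let-7 target, Gpi1 (0.89), a glycolytic enzyme, and Asphd2 (0.88). Dnd1, the partner of NANOS2 in binding RNA (0.88), Matn4 (0.87), Nptx1 (0.87), Tle3, a corepressor (0.87), and Bnc2 (0.87) followed. After group means were removed their r with the 9 genes was between 0.81 and 0.93. The same 30 libraries chose these genes, so this is no separate check.

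In a wider list of 29 genes reported in undifferentiated spermatogonia 26 passed the filter, and more of them fell than rose at the later step. At 16 over 12 dpp 10 fell and 1 rose in mutants, beside 5.89% of all rows lower and 6.21% higher, and 9 fell and 0 rose in non-mutants, beside 13% lower and 8.88% higher. The medians were -0.45 in mutants and -0.39 in non-mutants, beside -0.004 and -0.09 over all rows. Shisa6, which marks a subset of spermatogonia and dampens WNT signalling, averaged 2.21 ± 0.628 TPM in mutants and 2.46 ± 0.891 TPM in non-mutants at 16 dpp, against 7.38 ± 2.06 TPM in mutants and 6.13 ± 1.04 TPM in non-mutants at 12 dpp, and changed by -1.37 (SE 0.17, adjusted p = 2.99e-06) in mutants and -1.07 (SE 0.17, adjusted p = 3.24e-05) in non-mutants. Itga6, a laminin receptor used to sort stem cells, changed by -0.67 (SE 0.0903, adjusted p = 9.86e-06) and -0.71 (SE 0.0903, adjusted p = 1.19e-06), and Sdc4, a cell surface proteoglycan, by -0.71 (SE 0.116, adjusted p = 1.05e-04) and -0.61 (SE 0.116, adjusted p = 2.70e-04). Dusp6, an ERK phosphatase, changed by -0.82 (SE 0.149, adjusted p = 4.08e-04) in mutants and -0.87 (SE 0.149, adjusted p = 8.29e-05) in non-mutants. Some of these genes are also expressed by Sertoli cells, and their part was not tested. At 12 over 8 dpp 4 fell and 3 rose in mutants, and 5 fell and 3 rose in non-mutants, out of 26 and beside 12.2% of all rows lower and 17.5% higher in mutants and 12.1% lower and 20.3% higher in non-mutants. Shisa6 was among those that fell, by a log2 fold change of -1.001 (SE 0.17, adjusted p = 4.74e-05) in mutants and -1.18 (SE 0.17, adjusted p = 5.22e-06) in non-mutants. In 14 genes of differentiating spermatogonia, 10 rose and 1 fell in mutants and 11 rose and 1 fell in non-mutants at 12 over 8 dpp, beside the same shares of all rows. Dmrtc2, a DMRT family factor in that list, changed by 1.71 (SE 0.251, adjusted p = 6.72e-06) in mutants and 1.85 (SE 0.251, adjusted p = 2.27e-06) in non-mutants. Between mutants and non-mutants 0 of the 26 wider genes and 0 of the 14 differentiating genes were called at 8, 12 or 16 dpp (limma). Of the 17 genes of GDNF, FGF and CXCL12 signalling 0 were called at each age as well. Over all rows 0%, 0% and 3.26% were called at these ages.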

How the data were processed

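Polyadenylated RNA was sequenced by the study's authors, and they deposited 1 table with 65534 rows of TPM (2 decimals); the submitters' processing notes name Bowtie 1.0.0, RSEM 1.2.8 and mm10 (GRCm38), with no order or role. Aligner settings and use of strand are not given in the sources used here. The table is cut inside its NONCODE rows; the rows not held carry 3.23 to 3.95% of the TPM in a library. Read depth cannot be had from TPM and is unknown; precision comes from the number of libraries.

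Symbols came from GENCODE M21. Rows over 1 TPM in at least 5 libraries (20021) were fitted with limma 3.58.1 (R 4.3.3, trend) on log2(TPM + 1), a pseudocount of 1 that understates changes of low genes, in 6 groups of genotype class and age that share 1 spread per row. Benjamini-Hochberg adjustment ran over all rows, and called means an adjusted p under 0.05. The fit was tested on simulated data. Alternatives changed the pseudocount (0.1), the filter, the scaling, the litter block, the non-mutant genotypes and the libraries used.

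The 10 genes and all lists were chosen with earlier results of these data known. Other genes are named by a rule: up to 4 called genes per list and comparison with the smallest adjusted p. Litter numbers in the column names tie mutants to littermates; deviations from group means correlated within litters at a median of 0.220 over 17 pairs (13 over 0.1) and at -0.0836 over 58 pairs of other litters. P-values measure the spread between libraries, which the main fit took as independent. At 8 dpp, litter 8 gave both Prdm9+/+ replicates 2 and 3 and mutant replicates 2 and 3.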

Additional observations from a re-analysis of the deposited data

Results flagged for a closer look

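Within the 60 groups of 5 libraries (10 genes, 2 genotype classes, 3 ages), 7 values stood apart from the rest of their group by Dixon's criterion, where chance gives about 1 in 20. Mutant replicate 1 at 8 dpp accounts for 3 of them, with 19.18 TPM of Gfra1, 26.57 TPM of Ret and 53.95 TPM of Zbtb16. The same library had 1007 TPM of summed general germ cell markers, the highest at 8 dpp, and 6898 TPM of summed Sertoli markers, within the range of the other 8 dpp libraries.

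Among non-mutants at 16 dpp, Prdm9+/- replicate 1 stood apart with 12.42 TPM of Gfra1 and 15.04 TPM of Ret; it also had the lowest sum of pachytene genes of its group, 322 TPM. Mutant replicate 5 at 12 dpp, of litter 13, whose Prdm9 goes against its labels at that age, had 21.07 TPM of Ret. Id4 reached 21.95 TPM in mutant replicate 4 at 8 dpp, the library with the lowest sum of general germ cell markers at that age, 361 TPM. The part of these sums in these values was not tested.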

How the results depend on the processing

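Between mutants and non-mutants, between the age steps of the 2 classes and between Prdm9+/- and Prdm9+/+, 0 of 9 genes were called under every alternative run, including each of 30 libraries left out. With litter as a fixed or a random replicate block, which pairs mutants with littermates, the count between mutants and non-mutants stayed 0 at each age; the random block changed no other count by more than 1 (Nanos2 lost its call at 16 over 8 dpp in non-mutants, leaving 5). Of 21 called changes of single genes, 9 kept their call in every alternative and 0 reversed.

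The counts of called genes moved as follows. At 12 over 8 dpp the count was 1 to 4 in mutants and 1 to 2 in non-mutants with each library left out, and 0 with Prdm9+/+ alone as non-mutants. At 16 over 12 dpp it was 3 to 5 in mutants and 2 to 4 in non-mutants with each library left out, and in non-mutants 0 with Prdm9+/+ alone and 1 with Prdm9+/- alone. With only the libraries compared in the fit it was 6 in mutants (Lin28a and Sall4 added) and 5 in non-mutants (Lin28a added). At 16 over 8 dpp it was 2 to 6 in mutants and 3 to 6 in non-mutants with each library left out; with only the libraries compared in the fit 3 were called in mutants (Gfra1 and Zbtb16 lost) and 6 in non-mutants (Nanos2 lost, Nanos3 added), and in non-mutants 3 with no filter and 3 with Prdm9+/- alone. Fewer samples or more rows tested are part of these alternatives by construction.

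Small differences between mutants and non-mutants that were not called changed sign: Lin28a at 8 dpp (-0.0475 against Prdm9+/- alone, -0.0998 to 0.341 with each library left out), Etv5 at 8 dpp (-0.132 to 0.0466), Nanos3 at 12 dpp (0.0381 against Prdm9+/- alone, -0.173 to 0.101), Sall4 at 12 dpp (-0.167 against Prdm9+/+ alone) and Nanos2 at 16 dpp (0.102 against Prdm9+/+ alone). The cause was not tested. The mean levels moved by less than 1 SD with each library left out or with median-ratio scaling (360 alternatives of 60 levels).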
